A study of Homo sapiens with 40 samples.

Results

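NABP1, CCDC86 and RNF19B are 3 protein-coding genes whose RNA was higher after interleukin-13 (IL-13) in BEAS-2B cells, an immortalised line of human bronchial epithelium. They were taken from the deposited table by gene symbol, as 3 of its 62263 genes, and they were chosen by their measured rise with IL-13 in these libraries. Their response to IL-13 is therefore described below without a test, and tests were kept for polysome against input RNA, for knockdown against control, and for differences between effects. Differences of the IL-13 effect between lines or fractions are built from the same IL-13 responses, so they are not independent of that choice. All 3 passed the filter on low counts, which left 16735 genes.

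The study used Frac-seq, in which RNA of the whole lysate (input) and RNA carried by polyribosomes (polysome) are sequenced side by side. Per the growth protocol and the series' design text there were constitutive knockdown lines: shControl cells express a control short hairpin RNA, and shIGF2BP3 cells express one that targets IGF2BP3, which encodes a protein that binds mRNA. The sample titles and the columns of the table write siC and siIGF2BP3 instead. This conflict is not resolved by the sources, and the wording of the protocol is followed here. With 1 line named per hairpin, an effect of the hairpin and other ways in which the lines differ cannot be told apart. All cells were grown in RPMI with 10% serum and starved overnight in 2% serum. The stimulated cells then received IL-13 at 100 ng/ml for 24 h, while the series' design text speaks of overnight stimulation, and the others are labelled unstimulated. Fraction, treatment and line gave 8 groups of 5 libraries. The labels do not say whether the 5 came from separate cultures, so p-values measure the spread between these libraries only.

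IL-13 is a type 2 cytokine that binds a receptor of IL4RA and IL13RA1 chains and acts through Janus kinases and STAT6. NABP1 (also known as hSSB2) is a single-stranded DNA-binding protein which, like its paralog NABP2, assembles with INTS3 and INIP into the SOSS complex of DNA repair. CCDC86, also called cyclon, is a nucleolar coiled-coil protein that was named as a cytokine-induced protein. RNF19B, also called NKLAM, is an E3 ubiquitin ligase of the RING-between-RING (RBR) class, which passes ubiquitin from an E2 enzyme through a cysteine of its own, and it is best known from natural killer cells and macrophages. The position of an mRNA on polysomes is a usual measure of how far it is engaged in translation.

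The start regions of NABP1 and CCDC86 are shown because the genes rose together and because they differ in composition. The sequences are from RefSeq on GRCh38.p14 and run from 250 bases before to 50 bases after the annotated start. That of NABP1 is chr2:191677886-191678185 and that of CCDC86 is chr11:60841863-60842162, both on the plus strand. Entries were matched for 2 of the 3 genes, not for RNF19B. Capitals mark motifs that were searched on both strands.
NABP1: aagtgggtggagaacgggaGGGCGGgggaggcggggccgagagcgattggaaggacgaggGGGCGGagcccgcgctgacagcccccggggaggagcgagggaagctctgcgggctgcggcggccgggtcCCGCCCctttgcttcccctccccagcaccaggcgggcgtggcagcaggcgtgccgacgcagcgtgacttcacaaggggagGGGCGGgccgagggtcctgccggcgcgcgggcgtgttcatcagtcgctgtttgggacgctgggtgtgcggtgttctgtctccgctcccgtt
CCDC86: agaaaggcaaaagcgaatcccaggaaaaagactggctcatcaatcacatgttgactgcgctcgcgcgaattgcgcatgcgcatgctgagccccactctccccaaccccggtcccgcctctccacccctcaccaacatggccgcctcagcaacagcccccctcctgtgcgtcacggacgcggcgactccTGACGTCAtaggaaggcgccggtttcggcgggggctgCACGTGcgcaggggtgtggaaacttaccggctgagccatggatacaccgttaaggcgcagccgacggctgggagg

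The NABP1 region is 73% G and C, against a median of 58.7% over 35116 promoter windows of the same length, and the CCDC86 region is 63.3%. In NABP1 the capitals are 4 GC boxes (GGGCGG on either strand), which begin at positions -231, -190, -121 and -41 from the start. In CCDC86 they are a cyclic AMP response element (TGACGTCA) from -62 to -55 and an E-box (CACGTG) from -25 to -20. A GC box was in 45% of all windows, an E-box in 7.26% and the cyclic AMP response element in 1.85%. The STAT6-type spacing TTCNNNNGAA, found in 6.44% of all windows, and the STAT-type TTCNNNGAA, found in 7.66%, matched neither sequence. No matches overlapped. The GC box, E-box and cyclic AMP response element were chosen for the search after the sequences had been seen, and a match is a description of letters.

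Input libraries held between 14044352 and 40441061 estimated counts (median 26189353). Polysome libraries held between 1816848 and 34082191 (median 19124845), and 3 of them, all of knockdown cells, were under 5000000: unstimulated numbers 1 and 5 and IL-13 number 5. The unstimulated control input library numbered 1 stood apart from its group, with a median Pearson correlation of log2(CPM + 1) with the other 4 libraries of 0.959, where CPM is counts per 1000000, against 0.973 to 0.989 in the other input libraries. In polysome RNA the lowest such values were 0.934 and 0.937, in the number 5 libraries of unstimulated and IL-13 knockdown cells. Epithelial keratins KRT7, KRT8, KRT18 and KRT19 were present, and the 6 epithelial markers summed to between 1357 and 3700 CPM in input libraries, although EPCAM and CDH1 averaged under 1 CPM. The 4 markers of airway secretory and ciliated cells averaged under 1 CPM each. Of the 5 fibroblast markers COL1A1 and COL1A2 were present, of the 7 leukocyte markers only CD14 reached 1 CPM, and of the 3 endothelial markers only CDH5. IGF2BP3, the targeted gene, was not called different between the lines in any setting, with log2 differences (knockdown minus control) of -0.50 and -0.45 in unstimulated and IL-13 input RNA and of -0.10 and -0.15 in polysome RNA, so directions for the knockdown rest on the labels. In these bulk libraries, fewer cells that express a gene and less RNA per cell cannot be told apart.

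Across the 8 groups, the 3 genes kept different orders of level. On the TPM scale, which is per transcript length, group means ran from 7.40 to 22.8 for NABP1, from 22.3 to 71.0 for RNF19B and from 28.3 to 163 for CCDC86. Highest over lowest group mean in CPM was 2.65 for NABP1, 3.29 for RNF19B and 5.98 for CCDC86. The groups of NABP1 climbed in pairs of lines: unstimulated input (14.0 and 14.4 CPM in knockdown and control), unstimulated polysome (18.2 and 18.4), IL-13 input (25.2 and 26.0) and IL-13 polysome (37.2 in knockdown and 34.6 in control). RNF19B also had the lines next to each other in most places, beginning with unstimulated input (47.4 and 51.2 CPM in knockdown and control). Unstimulated polysome knockdown (79.0), IL-13 input (81.8 in control and 82.2 in knockdown) and unstimulated polysome control (99.2) followed, and IL-13 polysome was highest (153 in control and 156 in knockdown). CCDC86 was lowest in unstimulated input control (40.5 CPM) and highest in IL-13 polysome knockdown (242), and in each fraction and treatment the knockdown mean was the higher one. Of the 7 neighbouring pairs in each order, the libraries were apart in 1 pair for NABP1, between unstimulated polysome control and IL-13 input knockdown. They overlapped in all 7 pairs for CCDC86 and in all 7 for RNF19B. The orders were set by these same means, and the pair apart is a step from unstimulated to IL-13, for which the genes were chosen. The share of all genes apart in such pairs was not computed, so nothing is read from these counts.

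**Figure D1:**
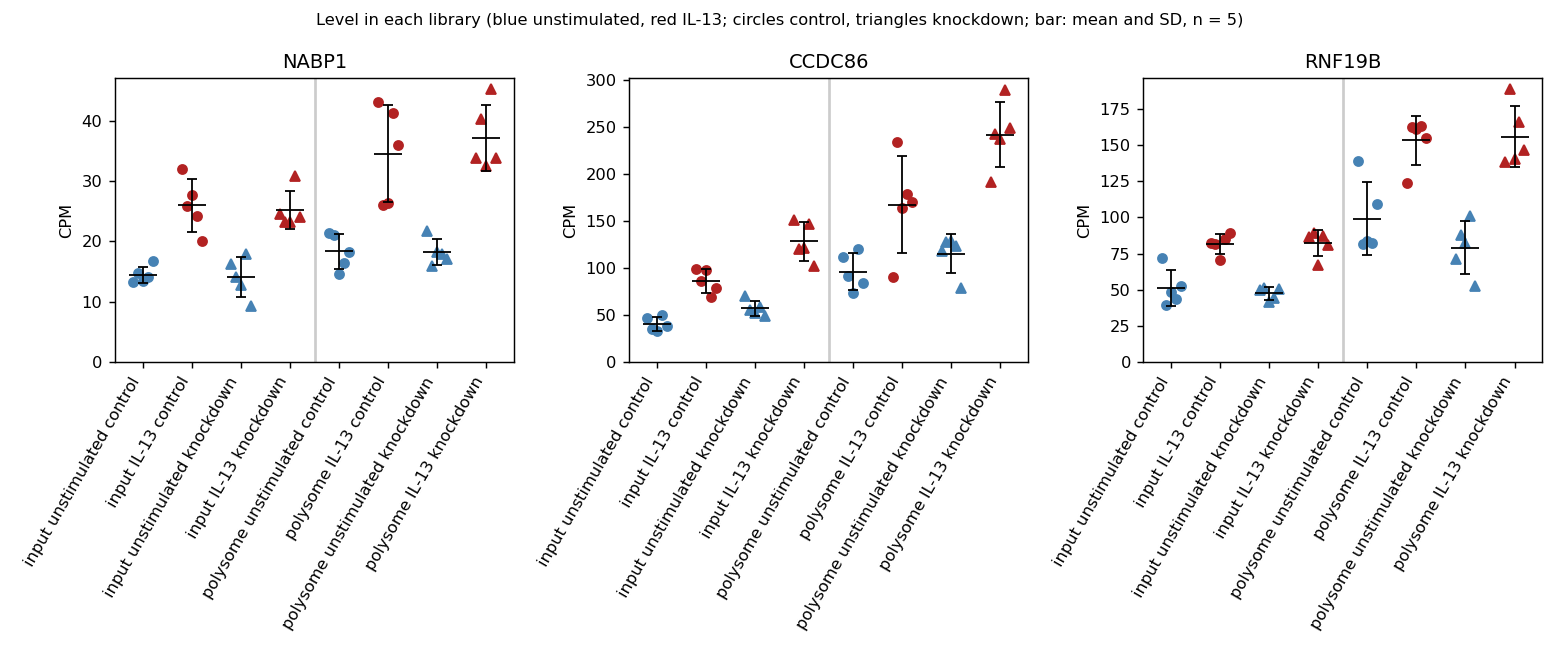
NABP1, CCDC86 and RNF19B in each of the 40 libraries, in CPM on the vertical axis, over the 8 groups, with bars at the mean and SD (n = 5). IL-13 groups (red) lie above the unstimulated groups (blue) of the same line and fraction in their means, with single overlapping libraries for CCDC86 and RNF19B.

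NABP1 was the member with the lowest level per transcript length, and its libraries with and without IL-13 were apart in each line and fraction. In input RNA of control cells it measured 13.2, 14.8, 13.5, 14.0 and 16.7 CPM unstimulated, and 31.9, 25.9, 27.8, 24.2 and 20.1 CPM with IL-13 (libraries 1 to 5 of each group). In input RNA of knockdown cells it measured 16.2, 14.0, 12.7, 17.9 and 9.27 CPM unstimulated and 24.6, 23.3, 23.2, 30.9 and 24.1 CPM with IL-13. Every IL-13 library lay above every unstimulated one in both lines. In polysome RNA of control cells NABP1 measured 21.4, 21.1, 14.6, 16.4 and 18.3 CPM unstimulated and 43.1, 26.0, 26.3, 41.4 and 36.1 CPM with IL-13. In polysome RNA of knockdown cells it measured 21.7, 15.9, 18.3, 18.0 and 17.1 CPM unstimulated and 33.9, 40.3, 32.5, 45.2 and 33.8 CPM with IL-13. Again the groups did not overlap, although the IL-13 control libraries numbered 2 and 3 were well below the other 3. The fitted ratios were 1.80-fold in input control (log2 effect 0.85 ± 0.174, SE), 1.79-fold in input knockdown (0.84 ± 0.175), 1.88-fold in polysome control (0.91 ± 0.175) and 2.05-fold in polysome knockdown (1.04 ± 0.178).

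CCDC86 had the largest ratio of the 3 in each setting except polysome control, where NABP1 had it. In input RNA of control cells CCDC86 measured 46.4, 35.2, 32.6, 49.9 and 38.6 CPM unstimulated and 99.2, 86.1, 97.9, 69.2 and 78.4 CPM with IL-13. In input RNA of knockdown cells it measured 70.3, 55.8, 52.2, 58.4 and 49.2 CPM unstimulated and 152, 120.5, 121, 147 and 102 CPM with IL-13. Both lines had separate groups in input RNA. In polysome RNA of control cells CCDC86 measured 111, 91.6, 73.1, 121 and 83.8 CPM unstimulated and 90.0, 235, 164, 179 and 169.9 CPM with IL-13. In polysome RNA of knockdown cells it measured 119, 127, 128, 124 and 79.2 CPM unstimulated and 192, 242, 238, 289 and 249.6 CPM with IL-13. The polysome control groups overlapped through IL-13 library 1, which lay below 3 of the 5 unstimulated libraries, and the knockdown groups did not overlap. The fitted ratios were 2.13-fold in input control (log2 effect 1.09 ± 0.186, SE), 2.25-fold in input knockdown (1.17 ± 0.187), 1.74-fold in polysome control (0.80 ± 0.185) and 2.09-fold in polysome knockdown (1.06 ± 0.187). Without IL-13 library 1 the log2 effect in polysome control was 0.96, and without IL-13 library 2, the highest, it was 0.65.

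RNF19B had the smallest ratio in each setting. In input RNA of control cells RNF19B measured 72.0, 39.5, 48.3, 43.4 and 52.7 CPM unstimulated and 82.1, 81.5, 70.6, 85.4 and 89.4 CPM with IL-13. In input RNA of knockdown cells it measured 49.6, 51.3, 41.7, 44.1 and 50.2 CPM unstimulated and 86.6, 89.2, 67.2, 87.4 and 80.6 CPM with IL-13. The control groups overlapped through the unstimulated library 1, and the knockdown groups were apart. In polysome RNA of control cells RNF19B measured 139, 81.4, 83.9, 82.2 and 109 CPM unstimulated and 124, 163, 162, 164 and 155 CPM with IL-13. In polysome RNA of knockdown cells it measured 71.3, 87.7, 82.4, 101 and 52.3 CPM unstimulated and 138, 189, 140.4, 166 and 146 CPM with IL-13. The unstimulated control library 1 was the highest of its group in this fraction too and again lay inside the IL-13 range, while the knockdown groups were apart. The overlap in polysome control also rested on IL-13 library 1 at 124 CPM, since the other IL-13 control libraries lay at 155 to 164 CPM. The fitted ratios were 1.60-fold in input control (log2 effect 0.68 ± 0.165, SE), 1.74-fold in input knockdown (0.80 ± 0.165), 1.55-fold in polysome control (0.63 ± 0.165) and 1.97-fold in polysome knockdown (0.98 ± 0.167). Without the input and polysome libraries numbered 1 of unstimulated control cells, the log2 effects in control cells were 0.83 in input and 0.78 in polysome RNA. Without the 3 libraries under 5000000 counts, the effect in polysome knockdown was 0.86.

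Groups with and without IL-13 were apart in 4 of 4 comparisons for NABP1, 3 of 4 for CCDC86 and 2 of 4 for RNF19B. Of all genes tested, 0.263% in input control, 0.586% in input knockdown, 0.317% in polysome control and 0.335% in polysome knockdown had every IL-13 library above every unstimulated one. Over the same genes, edgeR's quasi-likelihood test called a difference with IL-13, at a Benjamini-Hochberg adjusted p under 0.05, for 0.0777% in input control, 0.0837% in input knockdown, 0.125% in polysome control and 0.0956% in polysome knockdown. These shares are the background to genes that were chosen for the same contrast, and nothing is read from them here. CISH, a feedback inhibitor of JAK-STAT signalling that serves as a scale, had log2 effects of 4.01, 3.90, 3.95 and 4.55 in the same order.

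The lists of genes of single-stranded DNA repair, RBR ubiquitination and the nucleolus were chosen with earlier results of these data known. They hold genes of the same field as a member and not only its partners. Beside the 0.0777% to 0.125% of all genes called with IL-13, lists of this size would rarely hold a called gene, so a count of 0 is near the background and is no result about the lists. None of the 16 genes tested of the SOSS complex and single-stranded DNA repair was called with IL-13 in any of the 4 comparisons by edgeR or by the DESeq2 Wald test, and 0 had an unadjusted p under 0.05. The same held for the 13 tested of 15 RBR ligases and their E2 enzymes, of which RNF144A was among those too low to test. Of 29 nucleolar and ribosome biogenesis genes 0 were called by either tool, and 1 in input control and 2 in polysome control had an unadjusted p under 0.05. Over all 16735 genes, 341 in input control and 860 in polysome control had such a p. The list medians of the log2 effect lay between -0.10 and 0.05, beside -0.02 to 0.0043 for all genes. NABP2, the paralog of NABP1, had log2 effects of 0.07, 0.04, 0.09 and 0.10 in input control, input knockdown, polysome control and polysome knockdown. RNF19A, the paralog of RNF19B, had effects of -0.05, 0.13, -0.16 and 0.06.

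In the list of IL-13 receptor and JAK-STAT genes, likewise chosen with the response to IL-13 known, the values are a description. By edgeR 3 of 15 tested genes were called in each of the 4 comparisons, all higher, beside 0.0777% to 0.125% of all genes in either direction. They were CISH, the chemokine gene CCL26, which was close to 0 without IL-13, and SOCS1, another feedback inhibitor (log2 effect 2.69 ± 0.392, SE, in input control). The receptor genes IL13RA2 and IL2RG were too low to test. The list median was between -0.04 and 0.09.

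Likeness of other genes to the members was the Pearson correlation of log2(CPM + 1) over the 40 libraries after each fraction's mean was subtracted, among 9610 genes, and it is a description of points that share libraries, treatment and line. For NABP1 the 3 most alike genes were CISH (0.873), RFLNA (0.852) and SPINT2 (0.829). For CCDC86 they were SPINT2 (0.874), TGM2 (0.862) and RFLNA (0.842). RNF19B was most like RFLNA (0.900), PPFIBP2 (0.853) and CISH (0.852). With each other the members correlated at 0.745 (NABP1 and CCDC86), 0.774 (NABP1 and RNF19B) and 0.757 (CCDC86 and RNF19B), which placed each between rank 5 and rank 11 in the other's order. All of these genes had positive log2 effects of IL-13. In input control the effect was 3.06 ± 0.583 (SE) for RFLNA and 3.11 ± 0.423 for PPFIBP2. It was 2.23 ± 0.953 for the transglutaminase TGM2 and 1.51 ± 0.221 for SPINT2, a Kunitz-type protease inhibitor.

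CCDC86 and RNF19B were higher in polysome than in input RNA, in both lines and with or without IL-13. A library is scaled to its own total, so this compares shares of each RNA pool and not amounts per cell, and the median of all genes lay at -0.20, -0.20, -0.19 and -0.23 on the log2 scale in unstimulated control, unstimulated knockdown, IL-13 control and IL-13 knockdown. By edgeR, 40.2%, 38.5%, 39.3% and 39.3% of all genes were called in either direction in these comparisons: 17.4%, 16.4%, 16.7% and 16% were called higher in polysome RNA and 22.8%, 22%, 22.6% and 23.3% lower. All polysome libraries lay above all input libraries for 9.84%, 11.6%, 10.6% and 12.3% of all genes, in the same order. Among such frequent calls, CCDC86 and RNF19B were called higher in 4 of 4 comparisons and NABP1 in 1 of 4.

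For CCDC86 the polysome level was 2.37-fold the input level in unstimulated control cells (log2 difference 1.25 ± 0.187, SE, adjusted p = 1.01e-06 by edgeR) and 2.02-fold in unstimulated knockdown cells (1.02 ± 0.187, adjusted p = 2.85e-05). With IL-13 it was 1.95-fold in control cells (0.96 ± 0.186, adjusted p = 5.89e-05) and 1.89-fold in knockdown cells (0.92 ± 0.185, adjusted p = 1.13e-04). The libraries of the fractions were apart in 3 of these 4 comparisons. In each single comparison 9.84% to 12.3% of all genes were apart with polysome RNA higher. The share apart in 3 of 4 was not computed. In IL-13 control cells they overlapped, since polysome library 1 (90.0 CPM) fell among input libraries of 69.2 to 99.2 CPM. The difference of CCDC86 exceeded that of 86.9% to 92.3% of all genes tested.

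For RNF19B the polysome level was 1.94-fold the input level in unstimulated control cells (log2 difference 0.95 ± 0.166, SE, adjusted p = 1.17e-05 by edgeR) and 1.68-fold in unstimulated knockdown cells (0.74 ± 0.166, adjusted p = 3.93e-04). With IL-13 it was 1.88-fold in control cells (0.91 ± 0.165, adjusted p = 2.51e-05) and 1.90-fold in knockdown cells (0.93 ± 0.166, adjusted p = 2.00e-05). Every polysome library lay above every input library in all 4 comparisons, a separation seen in each single comparison for 9.84% to 12.3% of all genes. The closest were unstimulated knockdown cells, whose highest input library was at 51.3 CPM and whose lowest polysome library, one of 1816848 counts, was at 52.3 CPM. The difference of RNF19B exceeded that of 81.6% to 87.1% of all genes.

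NABP1 leaned the same way by less. It was called in IL-13 knockdown cells, at 1.48-fold (log2 difference 0.56 ± 0.174, SE, adjusted p = 0.0089 by edgeR), where input libraries of 23.2 to 30.9 CPM lay below polysome libraries of 32.5 to 45.2 CPM, as for 12.3% of all genes. Without a filter on low counts this call was lost (adjusted p = 0.0743). The differences that missed the threshold were 0.34 ± 0.174 in unstimulated control cells (adjusted p = 0.115), 0.37 ± 0.177 in unstimulated knockdown cells (adjusted p = 0.0956) and 0.41 ± 0.173 in IL-13 control cells (adjusted p = 0.0564). Their fractions overlapped. The value in IL-13 control cells passed without input library 1 (adjusted p = 0.0335), polysome library 2 (0.0255) or polysome library 3 (0.0301), and with the 37 libraries of at least 5000000 counts (0.0152). In unstimulated knockdown cells it passed without input library 4 (adjusted p = 0.0449) or polysome library 5 (0.0264), the one of lowest depth. With 1 library left out, 7 of 10 fits in IL-13 control and 8 of 10 in unstimulated knockdown cells still missed the threshold. The edgeR adjusted p reached 0.175 in the former and 0.295 in the latter. Relative to all genes, the difference of NABP1 exceeded that of 68.7% to 77.2%.

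**Figure D2:**
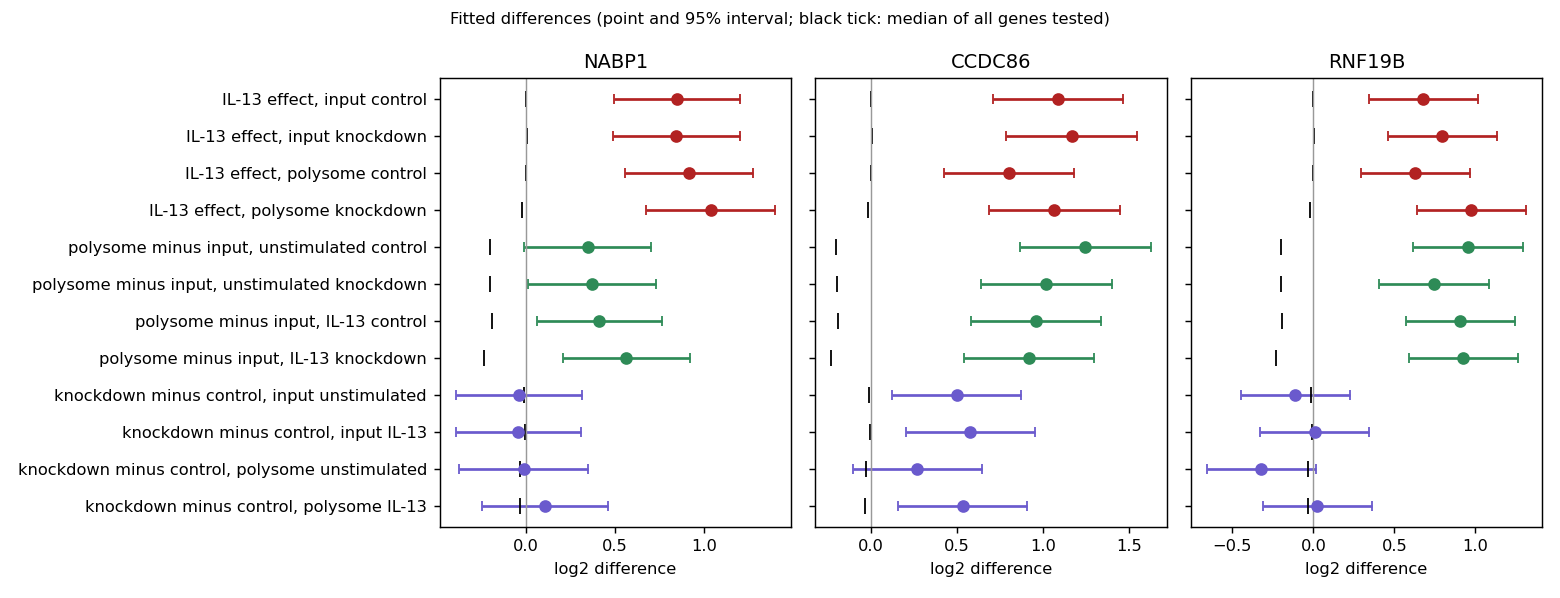
Fitted log2 differences of the 3 genes (horizontal axis) with 95% intervals for the effect of IL-13 (red), polysome minus input (green) and knockdown minus control (purple), with the median of all genes tested as a black tick. The IL-13 intervals are a description, and the green points of CCDC86 and RNF19B lie between 0.74 and 1.25, to the right of the all-gene median near -0.20.

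The paralogs NABP2 and RNF19A had values below 0, as did the median of all genes. NABP2 was lower in polysome RNA in unstimulated knockdown cells (log2 difference -0.48, edgeR adjusted p = 0.0107) and IL-13 knockdown cells (-0.42, adjusted p = 0.0224), and measured -0.29 and -0.26 in unstimulated and IL-13 control cells. Its 4 values exceeded those of 40.8% to 47.6% of all genes. RNF19A was lower in IL-13 control cells (-0.73, adjusted p = 0.0413) and measured between -0.62 and -0.39 in the other 3 comparisons, and its values exceeded those of 32.1% to 43.7% of all genes. These are differences of each gene between fractions, and the difference between paralogs was not tested.

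Genes of the lists went in both directions between the fractions. Of 16 genes of the SOSS and single-stranded DNA repair list, 3 were higher in polysome RNA in each comparison and 7, 8, 9 and 8 were lower (unstimulated control, unstimulated knockdown, IL-13 control, IL-13 knockdown). All genes were called higher at 16% to 17.4% and lower at 22% to 23.3%. The count of higher genes in this list thus lay near the background and that of lower genes above it, which was not tested. The higher ones included RPA2, a subunit of the replication protein A complex (log2 difference 1.83 ± 0.139, SE, in unstimulated control), and SSBP1, the mitochondrial single-stranded DNA-binding protein (1.96 ± 0.182). The helicase BLM was among the lower ones (-2.94 ± 0.405). The list median was between -0.84 and -0.46, beside -0.23 to -0.19 for all genes.

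Of 13 RBR ligases and E2 enzymes, 4, 3, 4 and 3 were higher and 3, 3, 4 and 3 lower, in the same order, beside the same shares of all genes (16% to 17.4% higher and 22% to 23.3% lower). UBE2L3, an E2 that works with RBR ligases, was 1.12 ± 0.170 higher on the log2 scale in unstimulated control cells, and the ligase ARIH2 was 0.59 ± 0.123 higher. RNF216 (-1.19 ± 0.217) and CUL9 (-2.71 ± 0.518) were lower. The list median was between -0.28 and 0.09.

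Of 29 nucleolar genes, 7, 5, 5 and 6 were higher and 13, 13, 15 and 13 lower, with CCDC86 itself not counted in the list, against 16% to 17.4% of all genes higher and 22% to 23.3% lower. The genes of smallest p in unstimulated control cells were all lower: POLR1A, the largest subunit of RNA polymerase I (-2.87 ± 0.174), MYBBP1A (-2.64 ± 0.274), nucleolin, NCL (-2.41 ± 0.270), and RRP12 (-2.04 ± 0.228). The list median was between -0.58 and -0.38. Of 15 JAK-STAT genes, 1, 0, 1 and 1 were higher and 6, 5, 5 and 5 lower, against the same shares. STAT3 (-1.79 ± 0.202), JAK1 (-2.88 ± 0.381) and SOCS1 (-1.95 ± 0.424) were lower in unstimulated control cells, and the list median was between -0.65 and -0.07.

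Knockdown cells held more CCDC86 RNA than control cells in the mean of every setting, but no difference passed the test across all genes. In IL-13 input RNA the libraries of the lines were apart, with control at 69.2 to 99.2 CPM and knockdown at 102 to 152 CPM (1.49-fold, log2 difference 0.58 ± 0.185, SE, adjusted p = 0.561 by edgeR). Of all genes, 0.98% had every knockdown library above every control library there. In unstimulated input RNA the difference was 0.50 ± 0.185 (adjusted p = 1 by edgeR), and 4 of 5 knockdown libraries lay above all control libraries. In IL-13 polysome RNA it was 0.53 ± 0.185 (adjusted p = 0.288 by edgeR), again with 4 of 5 above, and it was 0.37 without control library 1. For counts of 4 of 5 the share over all genes was not computed, and nothing is read from them. In unstimulated polysome RNA it was 0.27 ± 0.185 (adjusted p = 0.823 by edgeR), and it was 0.43 with the libraries of at least 5000000 counts.

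Over all genes the same test called 0.012% in unstimulated input, 0% in IL-13 input, 0.0299% in unstimulated polysome and 0.0896% in IL-13 polysome RNA. For IL-13 input, 502 of 16735 genes had an unadjusted p under 0.05, and the DESeq2 Wald test called 55. The former is a share below 0.05, the one that p-values give where no gene differs. An exact permutation test of log2(CPM + 1), two-sided and added after the data had been seen, gave p = 0.0159, 0.00794, 0.19 and 0.0159 for CCDC86 in unstimulated input, IL-13 input, unstimulated polysome and IL-13 polysome RNA. The second is the smallest p that 252 arrangements can give. Adjusted over the 12 such tests of the 3 genes, the values were 0.0635, 0.0635, 0.457 and 0.0635.

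NABP1 and RNF19B did not pass the test in any setting. NABP1 had log2 differences (knockdown minus control) of -0.04 in unstimulated input, -0.04 in IL-13 input, -0.01 in unstimulated polysome and 0.11 in IL-13 polysome RNA, with 95% intervals that reached down to -0.40 and up to 0.46. RNF19B had differences of -0.11, 0.01, -0.32 and 0.03 in the same order. The value of -0.32 (95% interval -0.66 to 0.02, adjusted p = 0.692 by edgeR) was -0.17 without the libraries numbered 1 of unstimulated control cells and -0.10 without the 3 libraries under 5000000 counts. Of the gene lists, 0 genes were called by edgeR in any of the 4 knockdown comparisons. At an unadjusted p under 0.05 there were between 0 and 3 genes per list and comparison. Over all 16735 genes, 497, 502, 1242 and 1660 had such a p in unstimulated input, IL-13 input, unstimulated polysome and IL-13 polysome RNA. The DESeq2 Wald test called 1 RBR list gene and 1 nucleolar gene in IL-13 polysome RNA, where it called 144 of all genes. Nothing is read from these list counts.

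No difference of the IL-13 effect between the lines passed the test of the difference itself. In input RNA the effect in knockdown minus that in control cells was -0.0035 for NABP1 (95% interval -0.50 to 0.50), 0.08 for CCDC86 (-0.45 to 0.61) and 0.12 for RNF19B (-0.36 to 0.59). In polysome RNA it was 0.12 for NABP1 (-0.38 to 0.63), 0.26 for CCDC86 (-0.27 to 0.79) and 0.35 for RNF19B (-0.13 to 0.82). Every edgeR adjusted p was 1, and the intervals still allow differences of up to 0.82 on the log2 scale. Without the libraries numbered 1 of unstimulated control cells the polysome value of RNF19B was 0.19. That of CCDC86 was 0.10 without IL-13 control polysome library 1 and 0.41 without library 2. That of NABP1 ran from 0.03 to 0.21 as single libraries were left out and was 0.26 with an offset for transcript length. In input RNA, leaving out single libraries gave -0.12 to 0.10 for NABP1, -0.0029 to 0.17 for CCDC86 and -0.03 to 0.20 for RNF19B.

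The effect of IL-13 was compared between fractions in the same way. In control cells the effect in polysome minus that in input RNA was 0.07 for NABP1 (95% interval -0.43 to 0.57), -0.29 for CCDC86 (-0.82 to 0.25) and -0.05 for RNF19B (-0.52 to 0.43). In knockdown cells it was 0.19 for NABP1 (-0.31 to 0.70), -0.10 for CCDC86 (-0.63 to 0.43) and 0.18 for RNF19B (-0.29 to 0.66). In control cells the value of CCDC86 was -0.13 without IL-13 polysome library 1 and -0.44 without library 2. Leaving out single libraries there gave -0.02 to 0.15 for NABP1 and -0.20 to 0.11 for RNF19B, so that their signs turned. In knockdown cells the same gave 0.08 to 0.30 for NABP1, -0.19 to -0.03 for CCDC86 and 0.10 to 0.28 for RNF19B. With the 37 libraries of at least 5000000 counts RNF19B measured 0.08 there.

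For the knockdown effect, polysome minus input, the unstimulated values were 0.03 for NABP1, -0.23 for CCDC86 and -0.21 for RNF19B. With IL-13 they were 0.15 for NABP1, -0.04 for CCDC86 and 0.02 for RNF19B. The unstimulated value of CCDC86 was -0.07 with the libraries of at least 5000000 counts and -0.08 without knockdown polysome library 5, and that of RNF19B was 0.02 with those libraries. Leaving out single libraries moved the unstimulated values between -0.09 and 0.13 for NABP1, -0.31 and -0.08 for CCDC86 and -0.36 and -0.06 for RNF19B. With IL-13 it moved them between 0.06 and 0.24 for NABP1, -0.20 and 0.10 for CCDC86 and -0.06 and 0.06 for RNF19B.

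Of the 18 differences of effects, 0 passed at an edgeR adjusted p under 0.05 and 0 had an unadjusted p under 0.05. The background was as thin: edgeR called 0% of all genes for the IL-13 effect between lines in input and 0% in polysome RNA, 0% for the IL-13 effect between fractions in control and 0% in knockdown cells, and 0% and 0.00598% for the knockdown effect between fractions without and with IL-13. In the order of the 5 comparisons at 0, unadjusted p-values under 0.05 numbered 153, 563, 326, 219 and 283 of 16735 genes. Each is a share below 0.05, the one that p-values give where no gene differs. In the same order the DESeq2 Wald test called 6, 25, 20, 5 and 10 genes.

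The deposited table also gives, through the ratio of count to TPM, the mean length of the transcripts behind a gene's count in each library. For NABP1 this length varied widely, from 0.674 to 1.42 times the gene's geometric mean, while RNF19B stayed between 0.990 and 1.01 times and CCDC86 between 0.920 and 1.01 times. The 1 library with CCDC86 at 0.920 was IL-13 control polysome library 1, the same that held its low level of 90.0 CPM. The spread of NABP1 within groups, as a pooled SD on the log2 scale, was 0.16 to 0.29.

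None of the 24 length differences, for polysome against input and for IL-13 against unstimulated, passed a two-sided exact permutation test with Benjamini-Hochberg adjustment. NABP1 had the largest, in IL-13 knockdown cells, where the mean length in polysome RNA was 0.785 times that in input RNA (exact p = 0.0397, adjusted p = 0.667). In IL-13 control cells the ratio was 0.836 (exact p = 0.119, adjusted p = 0.868). With an offset for this length in the fit, the polysome minus input difference of NABP1 was 0.91 in IL-13 knockdown and 0.64 in IL-13 control cells, the latter at an edgeR adjusted p of 0.0142. The IL-13 effect of NABP1 was then 0.66 in input control, 0.74 in input knockdown, 0.95 in polysome control and 1.22 in polysome knockdown. Its IL-13 effect in polysome minus that in input RNA was then 0.29 in control and 0.47 in knockdown cells, beside 0.07 and 0.19 without the offset. The antisense gene CCDC86-AS1, which overlaps CCDC86, was above 0 in 2 of 40 libraries with at most 5 counts.

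**Figure D3:**
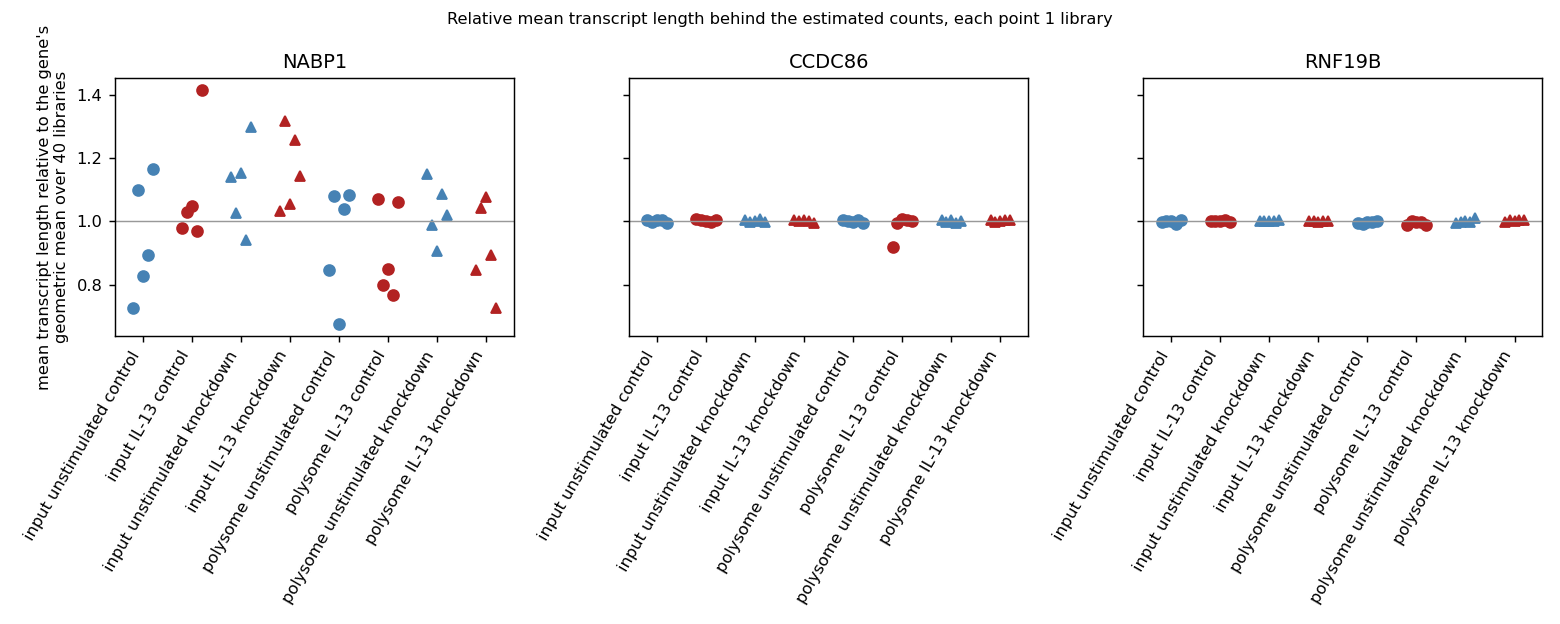
Mean transcript length behind the estimated count, relative to each gene's geometric mean over 40 libraries (vertical axis), with each point 1 library of the 8 groups. NABP1 spreads from 0.674 to 1.42, while RNF19B stays within 0.990 to 1.01 and CCDC86 has 1 library at 0.920.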

How the data were processed

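RNA-seq libraries from 20 input and 20 polysome RNA samples were analysed. The authors deposited estimated counts and TPM per gene, per the file headers. Per the submitters' processing notes, Trimmomatic, Salmon, MultiQC and DESeq2 were used, and the genome build and counting strand are not given in the sources used here. Per the labels' protocols, libraries were polyA-selected and stranded. TPM held in the table summed to 82.3% to 85.9% of a full set. Of 62263 gene IDs, 62246 matched a symbol.

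The design had assumed counts, so the estimated counts were rounded. Genes were kept with filterByExpr (at least 99.91% of each library's counts), scaled with TMM factors and fitted with edgeR 4.0.16 in R 4.3.3, with 1 mean per group over 40 libraries and 32 residual degrees of freedom. The 18 comparisons were tested two-sided by quasi-likelihood with Benjamini-Hochberg adjustment over all genes, and intervals are 95%. CPM (counts per 1000000) used the scaled library sizes. Relative transcript length was count over TPM, with a library constant from 8552 genes of at least 10 CPM removed. The edgeR part of the procedure was tested on simulated data, for some of the comparisons.

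The members and lists were chosen with earlier results of these data known. Named were the members, IGF2BP3, CISH, NABP2 and RNF19A, up to 4 called genes per list and comparison by smallest p, and the 3 genes most alike to each member with at least 5 CPM in each fraction. Some genes that met this rule are not reported here, and the counts include them. Alternatives were DESeq2 size factors, no filter, DESeq2 1.42.0's Wald test, only the libraries compared, a replicate block, a length offset, libraries of at least 5000000 counts, 38 libraries without unstimulated control number 1, and leaving out each library in turn.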

Additional observations from a re-analysis of the deposited data

Results flagged for a closer look

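In each of 24 sets of 5 libraries (3 genes in 8 groups), the gap of the highest or lowest library to its nearest neighbour was compared with the range of the set by Dixon's 95% limit. Chance would give about 1.2 such sets, and 3 were found. NABP1 in IL-13 knockdown input library 4 was at 30.9 CPM, above 23.2 to 24.6 CPM in the other 4. CCDC86 in unstimulated knockdown polysome library 5, the one of lowest depth, was at 79.2 CPM, below 119 to 128 CPM in the other 4. RNF19B in IL-13 control polysome library 1 was at 123.6 CPM, below 155 to 164 CPM in the other 4.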

How the results depend on the processing

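Of 96 IL-13 effects under other settings, 95 kept their direction and moved by less than the spread between libraries, as did 120 of 120 with 1 library left out. The exception was NABP1 in polysome knockdown with the length offset, at 1.22. Of 108 polysome minus input differences under other settings, 101 kept direction and side of the threshold, as did 115 of 120 with 1 library left out, and the other 12 were all of NABP1. In IL-13 control cells NABP1 passed with DESeq2 size factors (0.46), the length offset (0.64), libraries of at least 5000000 counts (0.51) and the DESeq2 Wald test (0.45), and with 1 library left out it lay between 0.32 and 0.50. In unstimulated knockdown cells NABP1 passed with DESeq2 size factors (0.44) and the Wald test (0.42), and with 1 library left out it lay between 0.25 and 0.52. In IL-13 knockdown cells it no longer passed without a filter (0.54). Depth limits the 3 polysome libraries under 5000000 counts most.

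The replicate numbers were not taken to pair the libraries: the labels do not say what they mark, and in no comparison did all 5 like-numbered pairs of libraries deviate from their group means together at a correlation above 0.1 (lowest -0.62, highest 0.68 over all comparisons), and at most 3 of 5 libraries correlated best with their own number. Polysome against input in unstimulated control cells came closest, with 4 of 5 pairs above 0.1, a median correlation of 0.44 and 3 of 5 libraries most like their own number. With the number, or line, treatment and number, as a replicate block, no call of the 3 genes changed. Signs that turned under a replicate block were those of NABP1, IL-13 effect between lines in input (0.0198), and CCDC86, knockdown effect between fractions with IL-13 (0.0036). The block left 0 in place of 2 genes called by knockdown in unstimulated input, 3 in place of 5 in unstimulated polysome RNA, and 0 in place of 1 for the knockdown effect between fractions with IL-13.

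Other signs that turned belonged to differences near 0 that passed in no setting. For CCDC86 the knockdown effect between fractions with IL-13 was 0.0020 with DESeq2 size factors, 0.0132 with libraries of at least 5000000 counts, 0.0330 with only the libraries compared and 0.0008 with the Wald test. With libraries of at least 5000000 counts the knockdown effect between fractions in unstimulated cells was -0.0086 for NABP1 and 0.0171 for RNF19B. NABP1's IL-13 effect between lines in input was 0.0826 with the length offset. Without unstimulated control number 1 that effect was 0.0286 for NABP1 and -0.0330 for RNF19B, and the knockdown difference was 0.0461 for NABP1 in unstimulated polysome and 0.0425 for RNF19B in unstimulated input RNA. With only the libraries compared the knockdown difference was 0.0072 for NABP1 in unstimulated polysome and -0.0016 for RNF19B in IL-13 input RNA, the latter being -0.0024 with DESeq2 size factors and -0.0023 with the Wald test. The cause was not tested.

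With 1 library left out, signs also turned within these ranges. For the IL-13 effect between lines in input they were -0.1159 to 0.1044 (NABP1), -0.0029 to 0.1684 (CCDC86) and -0.0327 to 0.2020 (RNF19B). For the IL-13 effect between fractions in control cells they were -0.0240 to 0.1538 (NABP1) and -0.2010 to 0.1066 (RNF19B). For the knockdown effect between fractions they were -0.0890 to 0.1317 (NABP1, unstimulated), -0.2050 to 0.1042 (CCDC86, IL-13) and -0.0647 to 0.0625 (RNF19B, IL-13). For the knockdown difference of NABP1 they were -0.1457 to 0.0746 in unstimulated input, -0.1257 to 0.0441 in IL-13 input and -0.0865 to 0.0463 in unstimulated polysome RNA. For that of RNF19B they were -0.1921 to 0.0423 in unstimulated input, -0.0387 to 0.0748 in IL-13 input and -0.0548 to 0.0645 in IL-13 polysome RNA.

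Log2 length differences, of which none passed, turned sign at -0.0003 for CCDC86 (polysome minus input, unstimulated control) with a constant from genes of at least 50 CPM. With 1 library left out, NABP1 ranged from -0.1628 to 0.0119 (IL-13, polysome control) and from -0.0862 to 0.1193 (polysome minus input, unstimulated control). CCDC86 ranged from -0.0002 to 0.0035 and from -0.0026 to 0.0013 (IL-13, input control and knockdown), from -0.0307 to 0.0019 (IL-13, polysome control), from -0.0021 to 0.0021 and from -0.0001 to 0.0037 (polysome minus input, unstimulated control and IL-13 knockdown). RNF19B ranged from -0.0006 to 0.0038 (IL-13, input control), from -0.0039 to 0.0004 and from -0.0000 to 0.0055 (IL-13, polysome control and knockdown) and from -0.0045 to 0.0010 (polysome minus input, unstimulated knockdown).

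Counts over all genes moved more. IL-13 calls were 13, 14, 21 and 16 in input control, input knockdown, polysome control and polysome knockdown, and over the settings with all or most libraries they lay between 8 and 33, 12 and 22, 3 and 61, and 9 and 36. Knockdown calls were 2, 0, 5 and 15 in unstimulated input, IL-13 input, unstimulated polysome and IL-13 polysome RNA, and lay between 0 and 28, 0 and 55, 0 and 90, and 0 and 144. The highest count was by the DESeq2 Wald test in each. For the 6 differences of effects, edgeR called at most 1 gene (at most 2 with 1 library left out) and the Wald test between 5 and 25. With 1 library left out, IL-13 calls lay between 8 and 23 and knockdown calls between 0 and 23.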
